A study of Mus musculus with 10 samples.

Results

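The 10 genes of replication origin licensing, Orc1, Cdc6, Cdt1, Mcm2, Mcm3, Mcm4, Mcm5, Mcm6, Mcm7 and Cdc45, were followed through the reprogramming of mouse fibroblasts with or without FoxO6. They were found by their symbols in the count table of the series, where all 10 matched 1 gene each out of 48476 genes, and their levels were read by Ensembl identifier. The cells were mouse embryonic fibroblasts (MEFs) from E13.5 embryos of the strain CBA/CaJ X C57BL/6J, which carried an Oct4-GFP reporter per the methods. All of them received Oct4, Klf4 and Sox2 (OKS) by retroviruses produced in PlatE cells and were then kept in iCD1 medium. One arm also received FoxO6, and the control arm received the fluorescent protein DsRed instead. Bulk RNA-seq was collected at days 0, 1, 3, 5 and 7, with 1 library for each arm and day, so that a difference on a single day cannot be checked against replicates.

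Before each round of DNA synthesis a cell licenses its origins. In G1 phase the origin recognition complex, of which Orc1 is the largest subunit, sits on the origin and with Cdc6 and Cdt1 loads the ring of Mcm2 to Mcm7, the replicative helicase. In S phase Cdc45 and the GINS complex join the ring and activate it, while geminin and the destruction of Cdt1 prevent a second loading. The genes of this machinery are well-known targets of E2F factors, which switch them on as cells enter the cycle.

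The promoters of the genes were read from RefSeq on GRCm38.p6 as the 250 bases before to 50 bases after each start site. By symbol 9 genes matched, without Mcm4. The E2F motif was searched as TTTGGCGC or TTTCGCGC on both strands and was found in 6 of these 9 genes, Mcm3, Mcm5, Mcm6, Mcm7, Orc1 and Cdt1, against 0.929% of the 27025 genes with a promoter and 1.91% of the 8363 of them that could be tested for expression. The windows of Mcm5 and Mcm6 are shown because each holds a pair of E2F matches on opposite strands that overlap by 4 bases, together with CCAAT motifs. Capitals mark the E2F motif and CCAAT on either strand.
Mcm5, chr8:75109339-75109498, plus strand: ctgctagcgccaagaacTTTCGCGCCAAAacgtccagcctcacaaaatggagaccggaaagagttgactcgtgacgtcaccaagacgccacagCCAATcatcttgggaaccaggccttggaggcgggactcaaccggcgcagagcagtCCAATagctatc
Mcm6, chr1:128359711-128359830, minus strand: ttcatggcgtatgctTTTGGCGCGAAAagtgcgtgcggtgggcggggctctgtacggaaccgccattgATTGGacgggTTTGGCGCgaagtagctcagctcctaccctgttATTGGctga

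In the other 4 genes a single E2F match lay close to the start site, at base -27 in Orc1 and at bases 16, 32 and 38 after the start in Mcm7, Cdt1 and Mcm3. The windows of 28 bases around them are shown for comparison of the flanks, with the E2F match in capitals.
Orc1, chr4:108579417-108579444, plus strand: tcggttagtgGCGCGAAAagttttctcc
Mcm7, chr5:138171850-138171877, minus strand: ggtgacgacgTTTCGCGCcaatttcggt
Cdt1, chr8:122568037-122568064, plus strand: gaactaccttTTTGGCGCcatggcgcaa
Mcm3, chr1:20820263-20820290, minus strand: ggaaaacttgggaagtTTTGGCGCcaag

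The FoxO motif, searched as GTAAACA on both strands, was found in 2 of the 9 genes, at base -223 in Cdc45 and at base 32 after a second annotated start of Mcm7. The motif was found in 4.05% of the 27025 genes with a promoter and in 2.85% of the 8363 of them that could be tested. The match in Cdc45 is printed because FoxO6 was the factor added, and capitals mark it.
Cdc45, chr16:18812180-18812207, minus strand: atattacttaaaGTAAACAttaaaacac
CCAAT was found in 7 of the 9 genes, in 41.1% of all genes with a promoter and in 43.3% of those that could be tested. These matches describe the letters of the windows only.

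Foxo6 itself set the arms apart as labelled, with 0.61 to 2.29 TPM (RSEM's level per transcript length and library) in the DsRed libraries and 762.1 to 1356 TPM in the FoxO6 libraries. The libraries held 1208379 to 2225750 expected counts, which gave between 9 reads (Orc1) and 355 reads (Mcm7) to a licensing gene in a library. As a check of the labelled cell type, the 6 fibroblast markers summed to 7360 TPM (DsRed) and 6181 TPM (FoxO6) at day 0 and to 2291 and 2454 TPM at day 7, and none was at 0 in any library. The 6 pluripotency markers summed to 5.55 and 0.71 TPM at day 0 and reached 304.5 TPM in DsRed and 51.0 TPM in FoxO6 at day 7.

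Over the 5 days, transcripts of the licensing genes were lower with FoxO6. All 10 genes had a fitted value below that of DsRed, where 52.1% of the 11028 genes tested did, and 7 of the 10 passed the test as lower, against 7.09% of all genes tested. The fold of FoxO6 over DsRed ran from 0.588 for Cdc6 to 0.802 for Mcm6, and the median log2 change of the 10 genes was -0.50, against -0.02 over all genes. None of the 10 passed as higher (edgeR; 0 at an unadjusted p under 0.05 and 0 with DESeq2), against 6.86% of all genes tested. Expected counts of both arms were fitted by edgeR's quasi-likelihood method with a term for each day, and p was adjusted by Benjamini-Hochberg over all genes, with 0.05 as the threshold. In bulk RNA, fewer cells that express a gene and less RNA per cell cannot be told apart. The labels do not say that the days of an arm were separate cultures, so the p-values measure only the spread between these libraries. The count of 7 was 5 with DESeq2, which called 10.7% of all genes in either direction, against 13.9% with edgeR. The count depended on single days, being 4 without day 0, 6 without day 1, 1 without day 3, 0 without day 5 and 4 without day 7. Of all genes tested without those days, 13.9%, 9.73%, 6.39%, 5.97% and 14.0% were called in turn, in either direction. All 10 fitted values stayed below 0 in each of these fits.

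**Figure D1:**
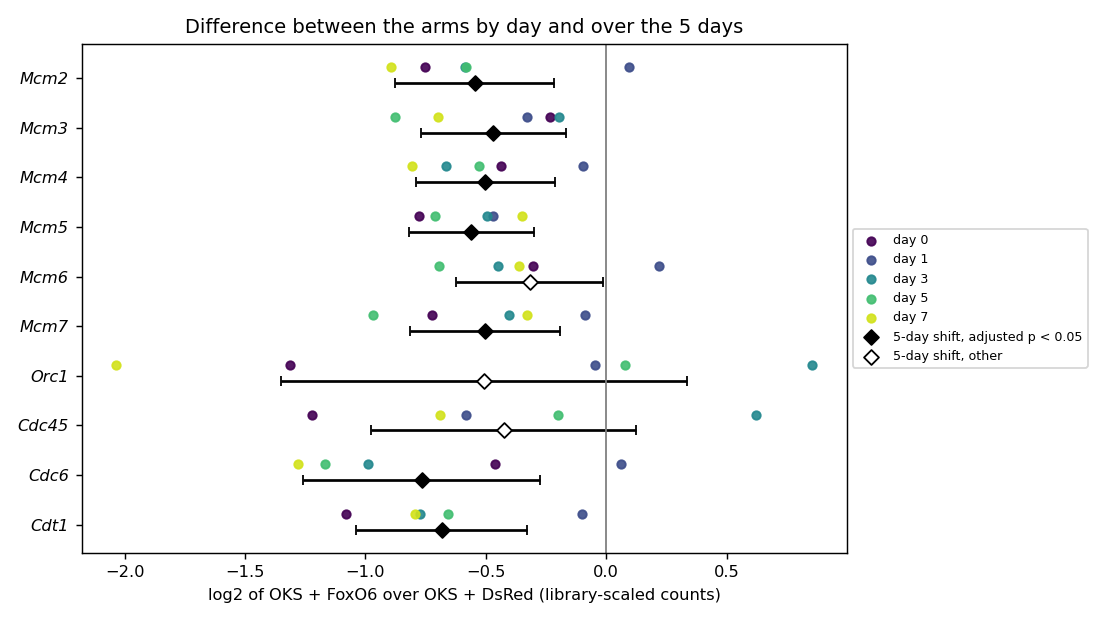
Log2 of OKS + FoxO6 over OKS + DsRed, from counts scaled to effective library size (x axis), for each licensing gene (y axis). Circles are single days, coloured by day, and diamonds with bars are the fitted difference over the 5 days with its 95% confidence interval, filled where the adjusted p was under 0.05. All 10 diamonds lie left of 0, 7 of them are filled, and the bars of Orc1 and Cdc45 cross 0.

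**Figure D2:**
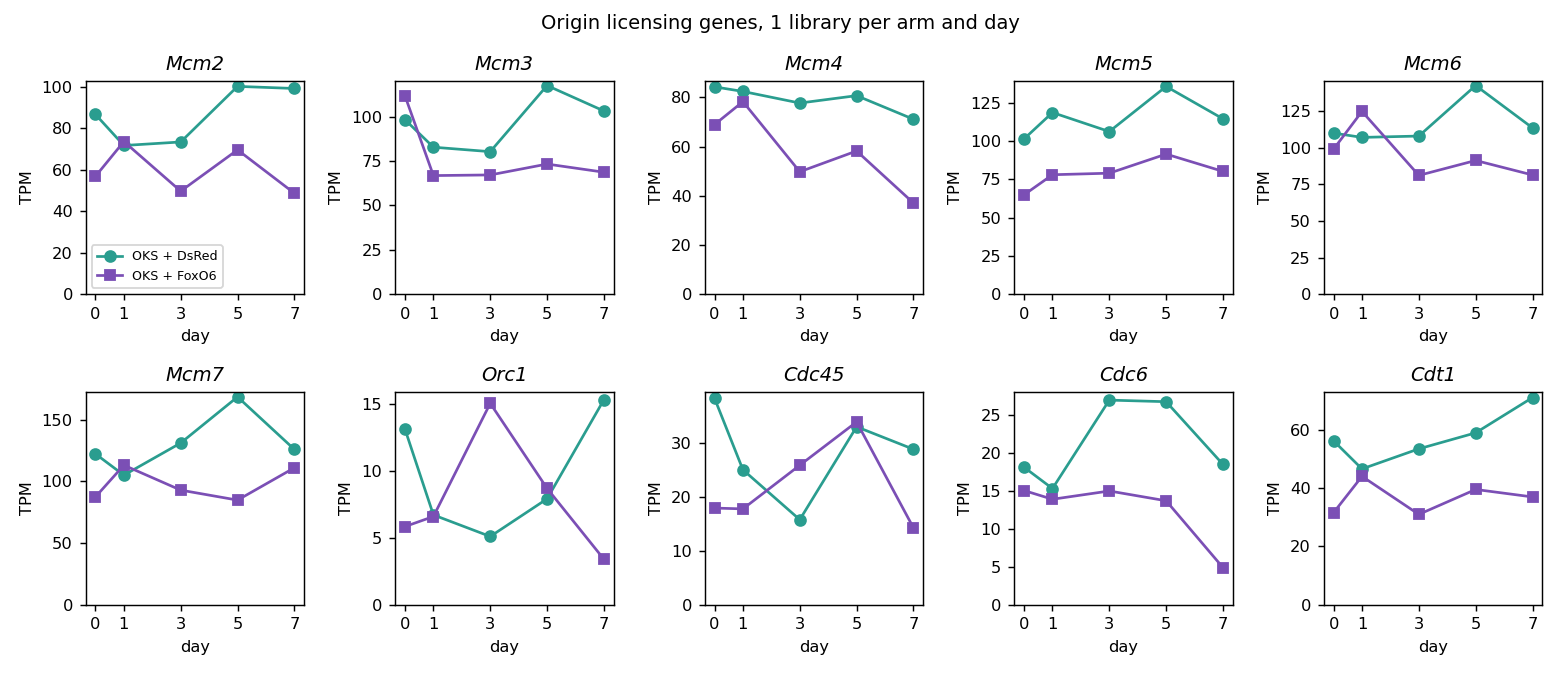
TPM of each licensing gene (y axis, from 0) against day (x axis) in the OKS + DsRed (circles) and OKS + FoxO6 (squares) libraries, 1 library per point. The arms do not overlap in Mcm5, Cdc6 and Cdt1 and cross in Mcm2, Mcm3, Mcm6, Mcm7, Orc1 and Cdc45.

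Orc1 (ENSMUSG00000028587, chromosome 4, 108579423 to 108614833, plus strand), a subunit of the recognition complex whose amount is known to vary with the cell cycle, had the lowest mean TPM of the 10 genes. Its level was 13.1, 6.71, 5.10, 7.91 and 15.3 TPM at days 0, 1, 3, 5 and 7 in DsRed. In FoxO6 it was 5.84, 6.59, 15.04, 8.69 and 3.40 TPM on the same days. The courses ran in opposite ways, with DsRed high at the ends and FoxO6 high at day 3, and the arms overlapped. At day 3 the difference was 1.39 on the log2(TPM + 1) scale, and at day 7 it was -1.89. The day 3 value rested on 11 and 27 reads, and the ratio of counts, each scaled to its TMM effective library size, was 1.81 (exact 95% interval 0.868 to 4.04, counting error only). The effective length assigned to Orc1 was 1840 bases in the FoxO6 library of day 3 and 2948 to 2954 bases in the other libraries, so TPM put that library higher than its counts did. At day 7, with 44 and 9 reads, the ratio of counts was 0.244 (0.105 to 0.507). Over the 5 days the fitted log2 change was -0.51 ± 0.38 (SE, n = 5 libraries per arm, adjusted p = 0.441, edgeR), with a 95% interval of -1.35 to 0.34. Of the exon bases of Orc1, 10.8% are shared with another annotated gene, and whether strand was used in counting is not given in the sources used here.

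The loaders had the lowest fitted folds of the 10 genes, an order that changed without day 3, where Orc1 was lowest (-0.82 on the log2 scale, against -0.70 for Cdc6 and -0.65 for Cdt1). Cdt1 (ENSMUSG00000006585, chromosome 8, 122568015 to 122573554, plus strand), which brings the helicase to the origin, stood at 56.2, 46.6, 53.4, 58.9 and 71.0 TPM at days 0, 1, 3, 5 and 7 in DsRed. In FoxO6 its level was 31.6, 44.0, 31.0, 39.5 and 37.0 TPM. Every FoxO6 library lay below every DsRed library, with the nearest approach at day 1. The fitted change was -0.68 ± 0.16 on the log2 scale (SE, n = 5 libraries per arm, adjusted p = 0.0181, edgeR), a fold of 0.623.

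Cdc6 (ENSMUSG00000017499, chromosome 11, 98907801 to 98923940, plus strand), the ATPase that joins the recognition complex before the helicase is loaded, had 18.1, 15.3, 27.0, 26.8 and 18.5 TPM in DsRed. In FoxO6 it had 15.05, 13.9, 15.0, 13.7 and 4.90 TPM, with the lowest value at day 7. The arms did not overlap in TPM, although the highest FoxO6 value and the lowest DsRed value were nearly equal. In CPM (counts scaled to the TMM effective library size, without the length term) they overlapped, with 22.96 in FoxO6 and 21.97 in DsRed at day 1. At day 7 the difference was -1.72 on the log2(TPM + 1) scale from 55 and 19 reads. The ratio of counts was then 0.412 (exact 95% interval 0.231 to 0.706), and the effective length was 4331 bases in that FoxO6 library and 2805 to 3323 bases in the others. The fitted change over the 5 days was -0.77 ± 0.22 (SE, n = 5 libraries per arm, adjusted p = 0.0433, edgeR), a fold of 0.588, and the adjusted p was 0.0747 with DESeq2.

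Of the 6 helicase subunits 5 passed the test, and Mcm6 did not. Mcm5 (ENSMUSG00000005410, chromosome 8, 75109569 to 75128439, plus strand), which with Mcm2 forms the gate through which DNA enters the ring, stood at 101.6, 118.8, 106.4, 135.9 and 114.7 TPM at days 0, 1, 3, 5 and 7 in DsRed. In FoxO6 it stood at 65.0, 78.1, 79.1, 91.6 and 80.3 TPM. The arms were apart on every day, and both were highest at day 5. Its fitted change was -0.56 ± 0.12 (SE, n = 5 libraries per arm, adjusted p = 0.0104, edgeR), the smallest adjusted p of the 10 genes.

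Mcm2 (ENSMUSG00000002870, chromosome 6, 88883474 to 88898780, minus strand), the other side of the gate, had 86.5, 71.6, 73.3, 100.1 and 99.0 TPM in DsRed and 56.7, 73.5, 49.6, 69.5 and 48.6 TPM in FoxO6. The arms met at day 1 and were farthest apart at day 7, where the difference was -1.01 on the log2(TPM + 1) scale. The fitted change was -0.55 ± 0.15 (SE, n = 5 libraries per arm, adjusted p = 0.0348, edgeR). Mcm4 (ENSMUSG00000022673, chromosome 16, 15623897 to 15637400, minus strand), a subunit of the catalytic core with Mcm6 and Mcm7, had 84.3, 82.4, 77.7, 80.7 and 71.1 TPM in DsRed and 68.9, 78.3, 49.7, 58.2 and 37.0 TPM in FoxO6. FoxO6 was lower on each day, but its day 1 library lay above 2 DsRed libraries. The fitted change was -0.50 ± 0.13 (SE, n = 5 libraries per arm, adjusted p = 0.0286, edgeR).

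Mcm7 (ENSMUSG00000029730, chromosome 5, 138164583 to 138172422, minus strand), the host gene of the microRNA genes Mir25 and Mir93, had 122.2, 105, 131, 168.3 and 125.8 TPM in DsRed. In FoxO6 it had 87.3, 113, 92.8, 84.8 and 110.9 TPM. The gap was widest at day 5, where DsRed was at its highest and FoxO6 at its lowest, and at day 1 TPM was higher in FoxO6 while CPM was lower (137 against 145). Its fitted change was -0.50 ± 0.14 (SE, n = 5 libraries per arm, adjusted p = 0.0383, edgeR). Genes that overlap it share 12.6% of its exon bases, so that part of its reads is uncertain.

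Mcm3 (ENSMUSG00000041859, chromosome 1, 20802968 to 20820312, minus strand), the neighbour of Mcm5 in the ring, had 98.2, 82.8, 80.2, 117.5 and 103.2 TPM in DsRed and 111.7, 66.8, 67.1, 73.2 and 68.7 TPM in FoxO6. FoxO6 was the higher arm in TPM at day 0 only, and in CPM it was lower there (124 against 146). The effective length of Mcm3 in that library was 2150 bases, the shortest of the 10 libraries, which ran up to 2971 bases. The fitted change was -0.47 ± 0.14 (SE, n = 5 libraries per arm, adjusted p = 0.0436, edgeR), and the adjusted p was 0.0687 with DESeq2.

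Mcm6 (ENSMUSG00000026355, chromosome 1, 128331590 to 128359664, minus strand) had 110.1, 107, 108, 142.7 and 113.7 TPM in DsRed and 99.1, 125, 81.2, 91.4 and 81.5 TPM in FoxO6. FoxO6 was the higher arm at day 1 and the lower on the other 4 days. The fitted change was -0.32 ± 0.14 (SE, n = 5 libraries per arm, adjusted p = 0.162, edgeR), with a 95% interval of -0.62 to -0.01 before adjustment.

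The 6 helicase subunits are built into the ring in equal numbers, and their summed level separated the arms. The sum was 602.9, 567.7, 576.7, 745.1 and 627.5 TPM at days 0, 1, 3, 5 and 7 in DsRed and 488.8, 534.7, 419.6, 468.7 and 427.0 TPM in FoxO6. Every FoxO6 sum was below every DsRed sum. The ratio of the arms was nearest to 1 at day 1 (0.942) and lowest at day 5 (0.629).

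Within the sum the shares of the subunits differed between libraries. The most abundant subunit was 1.45 to 2.09 times the least abundant in a DsRed library and 1.57 to 2.995 times in a FoxO6 library. Mcm4 held 10.8% to 14.5% of the sum in DsRed and 8.67% to 14.6% in FoxO6, with the lowest share at day 7. Mcm6 held 18.1% to 19.2% in DsRed and 19.1% to 23.4% in FoxO6. Mcm3 held 13.9% to 16.4% in DsRed and 12.5% to 22.9% in FoxO6, and Mcm7 18.5% to 22.7% and 17.9% to 26.0%. The highest shares of Mcm3 (FoxO6, day 0) and Mcm7 (FoxO6, day 7) fell where their effective lengths were shortest. These were 2150 and 2386 bases, against up to 2971 and 2900 in other libraries, and TPM divides by this length. The value of 2.995 was Mcm7 over Mcm4 in the same day 7 library. The shares are given as values without a test.

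**Figure D3:**
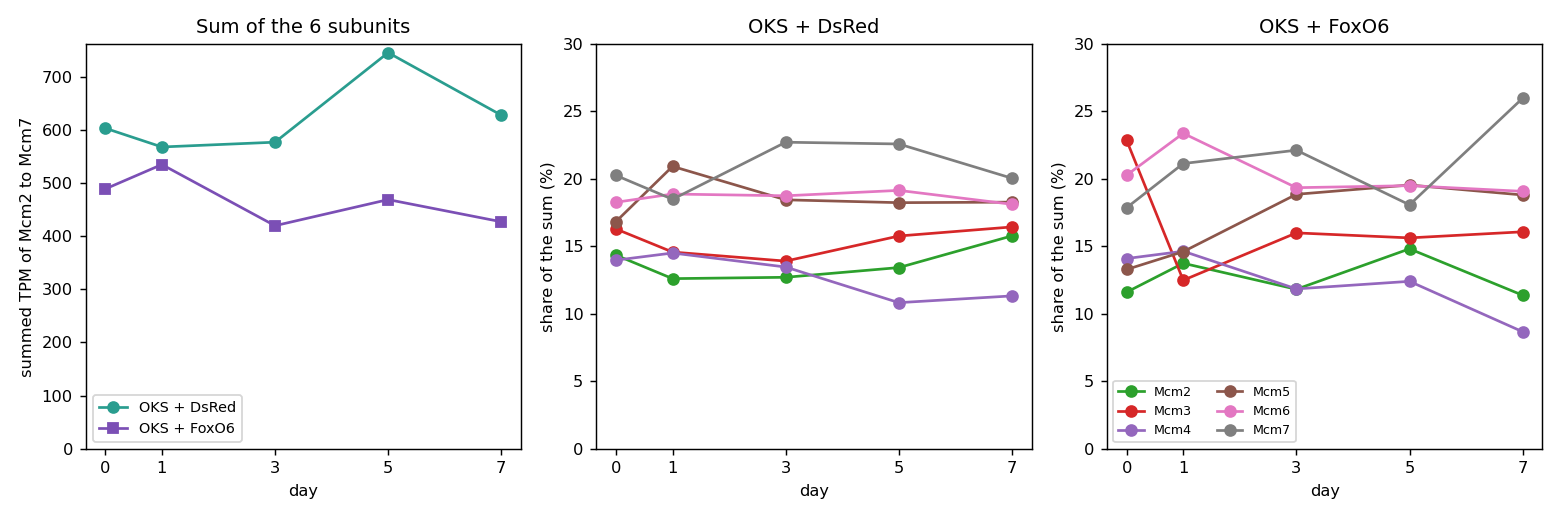
Left, summed TPM of Mcm2 to Mcm7 (y axis, from 0) by day (x axis) in OKS + DsRed (circles) and OKS + FoxO6 (squares). Middle and right, the share of each subunit in that sum (%) by day in each arm, 1 library per point. The FoxO6 sum lies below the DsRed sum on each day, and the lowest share is that of Mcm4 at day 7 in FoxO6 (8.67%).

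Cdc45 (ENSMUSG00000000028, chromosome 16, 18780447 to 18811987, minus strand), which joins the loaded ring when origins fire, had 38.2, 25, 15.8, 33.0 and 28.8 TPM in DsRed. In FoxO6 it had 17.9, 17.8, 25.8, 33.9 and 14.2 TPM. DsRed was the higher arm at days 0, 1 and 7 and FoxO6 at day 3, and at day 5 TPM put FoxO6 slightly higher while CPM put it lower (30.3 against 34.7). The exact 95% interval of the ratio of counts lay below 1 at day 0 (0.272 to 0.671) and included 1 on the other days. At day 3, with 22 and 46 reads, the interval ran from 0.908 to 2.69. The day 0 difference was -1.05 on the log2(TPM + 1) scale. Ufd1 shares 5.96% of its exon bases. Over the 5 days the fitted change was -0.43 ± 0.25 (SE, n = 5 libraries per arm, adjusted p = 0.31, edgeR), with a 95% interval of -0.98 to 0.13.

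Counted by day, 9, 7, 8, 8 and 10 of the 10 genes had a lower TPM in FoxO6 at days 0, 1, 3, 5 and 7, where 39.9%, 48.4%, 49.0%, 47.7% and 57.0% of all genes had. The median difference of the 10 genes on the log2(TPM + 1) scale was -0.54 at day 0, against 0.09 over the 15011 genes whose TPM averaged 1 or more, the set also used for the shares of all genes on single days. It was -0.08 at day 1 and -0.46 at day 3, where the median of all genes was 0. It was -0.56 at day 5, against 0.00, and -0.92 at day 7, against -0.14. The arms were thus nearest at day 1 in these medians. By counts scaled to effective library size the median ratio of the 10 genes was 0.599, 0.939, 0.721, 0.626 and 0.597 on the 5 days in turn, so that day 7 stood apart from day 0 in TPM but not in counts.

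Few of these differences exceeded 2-fold. Orc1 and Cdc45 were more than 2-fold lower in FoxO6 at day 0, 2 of 10 where 6.41% of all genes were. Mcm2, Orc1 and Cdc6 were so at day 7, 3 of 10 where 16.5% of all genes were, although the ratio of counts of Mcm2 was 0.539 there. No licensing gene was at days 1, 3 and 5, where 9.43%, 11.8% and 11.4% of all genes were. Orc1 was the 1 gene more than 2-fold higher, at day 3, against 8.21% of all genes. At days 0, 1, 5 and 7 no licensing gene was more than 2-fold higher, where 10.6%, 8.1%, 10.3% and 8.3% of all genes were. The exact 95% interval of the ratio of counts lay below 1 in 34 of the 50 pairs of gene and day and above 1 in 0 of them, against 15.3% below 1 and 13.7% above 1 over all genes and days. By day, 8, 2, 7, 8 and 9 genes lay below 1 at days 0, 1, 3, 5 and 7, against 13%, 11.9%, 14.6%, 17.1% and 19.8% of all genes. These intervals cover counting error only and narrow with the number of reads, so genes with more reads pass more easily.

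Mcm4, Mcm5, Cdc6 and Cdt1 had a lower TPM in FoxO6 on each of the 5 days, 4 of 10 genes against 9.72% of all genes tested. In Mcm5, Cdc6 and Cdt1 the highest FoxO6 value was below the lowest DsRed value, 3 of 10 genes against 1.5% of all genes tested. In CPM this held for Mcm5 and Cdt1, against 1.56% of all genes tested, and the genes lower on each day were Mcm3, Mcm4, Mcm5, Mcm7 and Cdt1, against 11.7%. TPM and CPM gave the same direction in 46 of the 50 pairs of gene and day, and the other 4 were Mcm3 at day 0, Mcm7 and Cdc6 at day 1 and Cdc45 at day 5.

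A change shared by both arms over time was tested next, to ask whether licensing genes moved as the fibroblasts were reprogrammed. From day 0 to day 7, 0 of the 10 genes passed edgeR's quasi-likelihood test, against 21.2% of all genes tested. At an unadjusted p under 0.05 there was 1, Mcm4, with a change of -0.52 ± 0.21 (SE) and a 95% interval of -0.98 to -0.07. The share of all genes at this unadjusted threshold is not given here, so the 1 gene has no reference. DESeq2 called 0, against 16.9% of all genes tested. The fitted changes ran from -0.52 to 0.30 on the log2 scale, with a median of -0.04. The 6 fibroblast markers all passed the same test, with a median of -1.95. A test for any difference among the days, again with edgeR, called 0 of the 10 genes, against 19.5% of all genes tested, and 0 at an unadjusted p under 0.05, with a lowest adjusted p of 0.236.

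Whether the gap between the arms widened with time was tested as the slope of the arm difference with day. It called 0 of the 10 genes, against 1.96% of all genes tested. At an unadjusted p under 0.05 there was 1, Cdc6, with -0.16 ± 0.07 per day on the log2 scale (SE, adjusted p = 0.252, edgeR). Here too the share of all genes at the unadjusted threshold is not given. DESeq2 called 0, against 1.12% of all genes tested. The slopes of the 10 genes ran from -0.16 to 0.07 per day, and 8 of them were below 0, where the share of all genes is not given. With 1.96% of all genes called, 0 calls among 10 genes cannot show that the gap stayed the same.

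The rest of the replication machinery was taken from lists of 76 tested genes in 8 groups. Of these, 9 (11.8%) passed the test as lower over the 5 days and 0 as higher, against 7.09% and 6.86% of all genes tested, and 55 (72.4%) had a fitted value below 0, against 52.1%. Their median log2 change was -0.24. The other recognition complex subunits, Orc2 to Orc6, and Lrwd1, a protein that binds the complex, held 0 genes of 6 that passed edgeR's test and 0 at an unadjusted p under 0.05 or with DESeq2, and their median was -0.11. The 4 GINS subunits, partners of Cdc45, also held 0 with edgeR and 0 with DESeq2, but 2 at an unadjusted p under 0.05, Gins1 with -0.84 and Gins2 with -0.52, and their median was -0.41. Mcm8 and Mcm9, relatives of the helicase subunits, Mcm10, a replication factor that is not related to them in sequence, and the Mcm-binding protein Mcmbp had 0 of 4 by edgeR at either threshold and by DESeq2, with a median of -0.14. At an unadjusted p under 0.05 stood 27.9% of all genes tested, and DESeq2 called 10.7%, both in either direction.

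Among 11 origin firing factors 1 passed, Cdc7, the kinase that phosphorylates the loaded helicase, with -0.59 ± 0.17 (SE, adjusted p = 0.0441, edgeR), and the median was -0.44. At an unadjusted p under 0.05 there were 7 of the 11, 10 of the 11 had a fitted value below 0, and DESeq2 called 0. Among 9 inhibitors of licensing and genes of Cdt1 destruction 1 passed, Skp2, the substrate receptor of an SCF ubiquitin ligase, with -0.63 ± 0.17 (SE, adjusted p = 0.029, edgeR). Of the 9, 3 were at an unadjusted p under 0.05, of which Cul1 was higher with FoxO6 (0.36), and DESeq2 called 0. Gmnn, which encodes geminin, had a fitted change of 0.01 (adjusted p = 0.985, edgeR), and the median of this group was 0.01. Of 23 genes of the replicative polymerases, clamp and ligase 3 were lower, namely Pola1 of the primase complex (-0.79) and the polymerase delta subunits Pold1 (-0.49) and Pold2 (-0.63), with a median of -0.30 and 2 calls by DESeq2. At an unadjusted p under 0.05 there were 11 of the 23, of which Pold4 was higher with FoxO6 (0.64). A fitted value below 0 was found in 21 of the 23. Pcna, the sliding clamp, had -0.21 (adjusted p = 0.335, edgeR).

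Of the 6 genes of nucleotide supply 3 were lower, the ribonucleotide reductase subunits Rrm1 (-0.48) and Rrm2 (-0.66) and the thymidine kinase Tk1 (-0.65), with a median of -0.47. Of the 6, 4 were at an unadjusted p under 0.05 and DESeq2 called 3, against 27.9% and 10.7% of all genes tested. Of 13 E2F and pocket protein genes 1 was lower, E2f7, an E2F that represses its targets, with -0.71 ± 0.21 (SE, adjusted p = 0.0497, edgeR), and the median was 0.08. Of the 13, 4 were at an unadjusted p under 0.05, of which E2f5 was higher with FoxO6 (0.61), and DESeq2 called 0. The proliferation markers Mki67 (-0.54) and Top2a (-0.67) were both lower, and their summed level was 229.4 to 455.6 TPM in DsRed and 139.3 to 308 TPM in FoxO6. Their part in the lower licensing transcripts was not tested. Whether the licensing genes differed from these groups was not tested either.

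**Figure D4:**
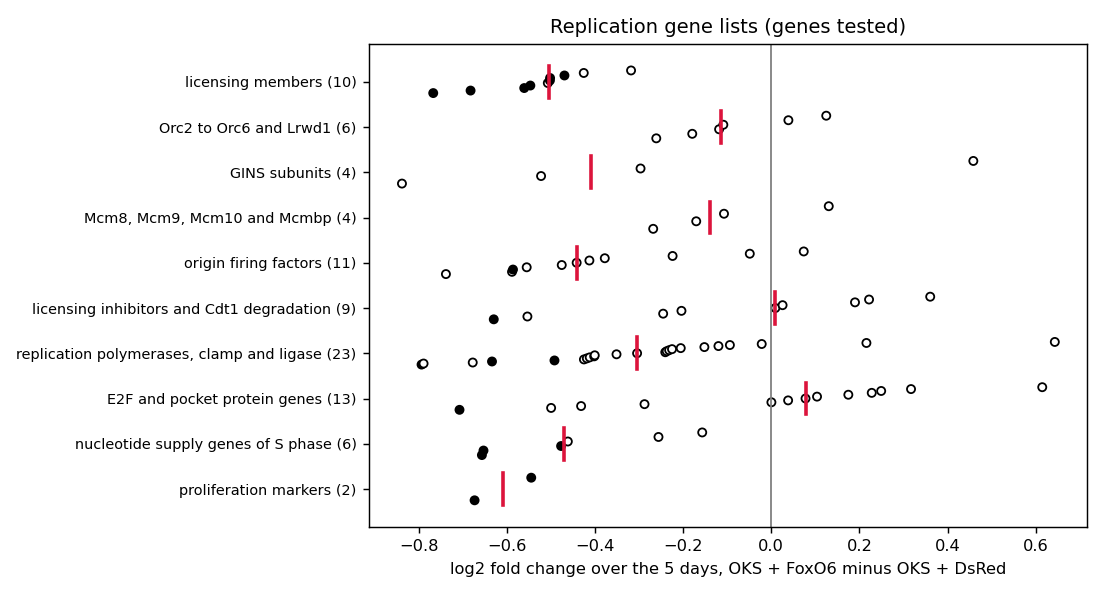
Fitted log2 change over the 5 days, OKS + FoxO6 minus OKS + DsRed (x axis), for each tested gene of the replication lists (y axis, number of genes in parentheses). Circles are genes, filled where edgeR's adjusted p was under 0.05, and red bars are list medians, from -0.50 for the licensing genes to 0.08 for the E2F and pocket protein genes among the pathway lists and -0.61 for the 2 proliferation markers.

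Markers of other cells were read beside these results. The fibroblast markers had a median change of -0.07 between the arms, and Col3a1 passed as lower (-0.64). The other 5 did not pass with edgeR, while DESeq2 called Col1a1 as well as Col3a1, and 4 of the 6 were at an unadjusted p under 0.05. The fitted changes of the 5 were -0.48 for Col1a1, -0.30 for Vim, 0.15 for Thy1, 0.46 for Col1a2 and 0.79 for Pdgfrb. The arm difference of Col1a2 changed with day (0.36 ± 0.04 per day, SE, adjusted p = 0.0022, edgeR), and its ratio of counts was 2.85 at day 5 and 3.27 at day 7. The 4 endothelial markers summed to 18.7 to 53.0 TPM in DsRed and 28.8 to 104 TPM in FoxO6, and Tek, the 1 of them that could be tested, was higher in FoxO6 (0.95), while Pecam1 reached at most 5.73 TPM (DsRed, day 7), Cdh5 1.24 TPM and Emcn 0.26 TPM. The 5 macrophage markers summed to 7.95 to 53.6 TPM in DsRed and 16.2 to 24.9 TPM in FoxO6, and Cd68 was the 1 that could be tested, with 0 calls by edgeR, 0 at an unadjusted p under 0.05 and 0 by DESeq2. The other 4 macrophage markers, Ptprc, Adgre1, Csf1r and Tyrobp, were at 0 to 2.05 TPM.

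The E2F motif could be set beside the expression test in the whole series. Outside the licensing genes, 154 tested genes held it, of which 4.55% were lower and 2.6% were higher with FoxO6, with a median log2 change of -0.05. Of the 8203 tested genes without the motif, 6.63% were lower and 7.03% were higher. Outside the licensing genes 236 tested genes held the FoxO motif, of which 5.93% were lower and 11.9% were higher. Of the 8125 tested genes without it, 6.65% were lower and 6.81% were higher.

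The 10 genes varied together to different degrees. Pearson's r of log2(TPM + 1) between a gene and the mean of the other 9 over the 10 libraries was highest for Mcm2 (0.916), followed by Cdt1 (0.777), Cdc6 (0.745), Mcm6 (0.738), Mcm4 (0.731), Mcm5 (0.729), Cdc45 (0.606), Mcm3 (0.587) and Mcm7 (0.575), and lowest for Orc1 (0.419), the gene with the fewest reads. The points share their libraries, arms and days, so these values are descriptive. Among the 9840 genes whose TPM averaged 10 or more, those most like the mean of the 10 genes included Hjurp (r = 0.960), the chaperone of the centromeric histone CENP-A, Arfip2 (0.934) and Uhrf1 (0.932), which directs maintenance methylation to new DNA. Dtymk (0.922), the thymidylate kinase, Vars (0.922), Zfp930 (0.919), Aldh18a1 (0.917) and Atf1 (0.915) followed. Those least like it were Fam50a (-0.923), Plekhm2 (-0.916), Snx32 (-0.914), Atp6v0c (-0.903) and Slc15a4 (-0.9), and the median r of all these genes was 0.03.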

How the data were processed

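Bulk RNA-seq was made of 10 libraries, and per the methods the transcripts of GENCODE M13 (mm10) were quantified by RSEM on Bowtie2 alignments. The authors deposited expected counts, RSEM's estimates without normalization, and TPM values scaled to effective transcript length. Because RSEM divides reads among isoforms, the effective length of a gene, and with it the TPM, can change between libraries. Strand use is not given in the sources used here.

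Samples were grouped by their labels. The members, lists, tests and alternatives were chosen with earlier results of these data known. The genes named are the 10 members, Foxo6, the members of the lists that passed a test or that define a list, and the genes most and least like the mean of the members. Differences on single days used log2(TPM + 1), a pseudocount of 1 that understates changes of low genes, in genes whose TPM averaged 1 or more. CPM and ratios of counts were scaled to the effective library size (counts of the filtered genes times the TMM factor), and the ratios have exact 95% binomial intervals, which cover counting error only. Rounded expected counts were fitted with edgeR 4.0.16 in R 4.3.3 (TMM, filterByExpr, quasi-likelihood test), as arm plus day for the shift between the arms, with day 7 against day 0 from the same model (4 residual degrees of freedom), and as the slope of the arm difference with day (3). DESeq2 1.42.0 was the alternative tool, and other size factors, filters, a length offset, day terms and leaving out each day were also tried. The procedure was tested on simulated data with 4-fold changes, where the slope test recovered a smaller share (96 of 197) than the shift test (192 of 192). Changes as small as those of the licensing genes were not simulated. Python 3.11.15 with pandas 2.3.3, scipy 1.17.1 and matplotlib 3.10.9 did the rest. Coordinates are from GENCODE M21 on GRCm38, and promoter sequences are from RefSeq. Some of the genes most like the mean of the members are not reported here.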

Additional observations from a re-analysis of the deposited data

Results flagged for a closer look

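Orc1 differed between the arms in opposite directions on different days. Its difference, FoxO6 minus DsRed on the log2(TPM + 1) scale, was 1.39 at day 3 and -1.89 at day 7, each from 1 library per arm. The difference between these 2 days themselves was not tested, and over all days the slope of the arm difference with day had an adjusted p of 0.79 (edgeR). In counts scaled to effective library size the day 3 ratio had an interval that included 1, from 0.868 to 4.04, and the day 7 ratio lay between 0.105 and 0.507.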

How the results depend on the processing

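All 10 licensing genes kept a fitted value below 0 under every alternative run for the shift over the 5 days. The number called lower, 7 with edgeR, was also 7 with DESeq2 size factors, upper quartile scaling, no filter, a mean count of at least 10 or a length offset. It was 0 with no day term, 3 with day as a number, 5 with DESeq2 and 0 to 6 when 1 day was left out. Without day 5 the number called was 0, 7 passed at an unadjusted p under 0.05, and the lowest adjusted p was 0.0654 (Mcm5, edgeR). The share of all genes at the unadjusted threshold in that fit is not given here. Leaving out a day removes 2 of 10 libraries. The number of all genes called, 1538, was 169 with no day term, 769 with day as a number and 1184 with DESeq2. With day 0, 1, 3, 5 or 7 left out it was 1545, 1094, 710, 655 and 1532 in turn. For day 7 against day 0 it was 2333, and 1148 with no arm term. For the slope it was 216, 648 with no filter, 124 with DESeq2, 112 without day 0, 134 without day 1 and 76 without day 7. On these tests 0 licensing genes were called by edgeR under each setting. In CPM with TMM scaling 3, 1 (Cdc6) and 2 genes were more than 2-fold lower at days 0, 5 and 7, against 2, 0 and 3 in TPM, and with a pseudocount of 0.1 there were 4 at day 7. Depth limits Orc1, Cdc45 and Cdc6 most, with 9 to 63 reads per library.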

Other observations

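Among the 76 tested genes of the other replication lists, 6 (7.89%) changed from day 0 to day 7 over both arms, against 21.2% of all genes tested. From day 0 to day 7, edgeR's adjusted test called E2f2, an activating E2F, higher by 2.19 ± 0.45 on the log2 scale (SE), and Dut, which removes dUTP from the nucleotide pool, higher by 2.04 ± 0.25. Lower at day 7 were the polymerase epsilon subunit Pole4 (-1.27 ± 0.33), E2f7 (-1.18 ± 0.34), Rrm1 (-0.97 ± 0.21) and Ddb1 (-0.69 ± 0.17), an adaptor of the ubiquitin ligase that destroys Cdt1. The difference between the arms changed with day in 2 of the 76 (2.63%, against 1.96% of all genes tested), namely Cul4b, a scaffold of that ligase family, with -0.23 ± 0.05 per day, and Prim2, a primase subunit, with 0.30 ± 0.06 per day.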
